A study of Mus musculus with 32 samples.

Results

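The change from normal to low M-CSF was followed in wild-type bone marrow-derived macrophages that received no LPS, in 8 of the 32 libraries of the series. The libraries were chosen by the labels for genotype, M-CSF level and treatment: 4 were labelled wild-type, low M-CSF and no LPS, and 4 wild-type, normal M-CSF and no LPS. All 8 came from cells of C57BL/6 background with intact Trem2, grown from bone marrow and held overnight in complete RPMI. Per the labels' protocols, cells had 0.5% or 10% LCCM, taken here for L-cell conditioned medium, the usual source of M-CSF in such cultures. No label joins low M-CSF to 0.5% or normal M-CSF to 10%, so that reading is an inference, and low medium is a reduction rather than a full removal of the factor. Conditioned medium holds other secreted proteins as well, and M-CSF itself cannot be told apart from them. For comparison, the same change of medium was read in 8 libraries of Trem2 knockout macrophages without LPS, and in 8 libraries of wild-type macrophages given LPS at 10 ng/ml for 4 hours. No age or sex is given for the mice. The labels leave it unsaid whether the 4 libraries per group trace back to different mice or culture dishes, and p-values therefore reflect library-to-library variation, which may be technical.

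M-CSF, the product of Csf1, is the main survival and growth factor of macrophages. Its receptor, the tyrosine kinase CSF1R, signals through PI3K and AKT and through RAS and ERK. ERK induces D-type cyclins and MYC together with its own inhibitors of the DUSP, SPRED and SPRY families. AKT holds FoxO transcription factors out of the nucleus, and mTORC1, which acts downstream of AKT and senses amino acids, holds the lysosomal regulators TFEB and TFE3 in the cytoplasm. When the factor is removed, cultured macrophages leave the cell cycle and, with time, die. These statements are background and were not tested here.

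Total counts were 5554661 to 12995945 in the 4 normal-medium libraries and 4929113 to 6802071 in the 4 low-medium libraries, and 12258 to 13000 genes had a count in a library. The first principal component held 66.5% of the variance and separated the media, with every low-medium library on 1 side. On the second component, which held 10.5%, normal-medium library 1 lay highest at 27.4, and low-medium library 3 was next at 16.2. Normal-medium libraries 2 and 4 and low-medium library 2 lay together at -18.0, -21.1 and -20.8. The actin-binding peptide gene Tmsb4x held 19375 CPM in normal-medium library 1 against 10926 to 12106 CPM in the other 3 normal-medium libraries. Normal-medium libraries 2 and 4, and low-medium libraries 1 and 3, were closer to each other than other pairs were, with a chi-square per degree of freedom of 4.94 and 4.95 against 14.7 to 81.5 for the other pairs within a group. In each of the 2 knockout groups without LPS the pairs 1 and 3, and 2 and 4, were likewise closest, at 4.59 to 6.57 against 22.6 to 73.7. The libraries of these pairs still differed by more than counting noise and were kept apart. Whether they share a culture was not tested.

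Counts were read as CPM, counts per 1000000 scaled by TMM factors. A log2 fold change is low over normal medium, given ± its standard error, and a gene was called when its adjusted p was under 0.05 (edgeR quasi-likelihood test, Benjamini-Hochberg adjustment over all genes tested). Group means are given ± SD with n = 4 libraries. Genes below called higher are said to have risen and genes called lower to have fallen. When a sentence gives a change from 1 level to another without more, the values are the mean CPM in normal and in low medium.

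In low medium 2522 of 11244 genes rose, or 22.4% of those tested, and 2461 fell, or 21.9%. In all, 44.3% were called, around a median log2 fold change of 0.01. By over 2-fold, 1318 genes rose (11.7%) and 1153 fell (10.3%), and by over 4-fold 293 rose (2.61%) and 216 fell (1.92%). All 4 low-medium libraries lay above all 4 normal-medium libraries for 21.3% of genes and below them for 20.9%. Genes given by library below were mostly picked for the size of their change, so a separation of the media in them follows largely from the choice. With so large a background, a gene list is described below by its counts and its median, to be read against these shares. When libraries 1 and 3, and 2 and 4, were summed within each group, 2969 genes were called.

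**Figure D1:**
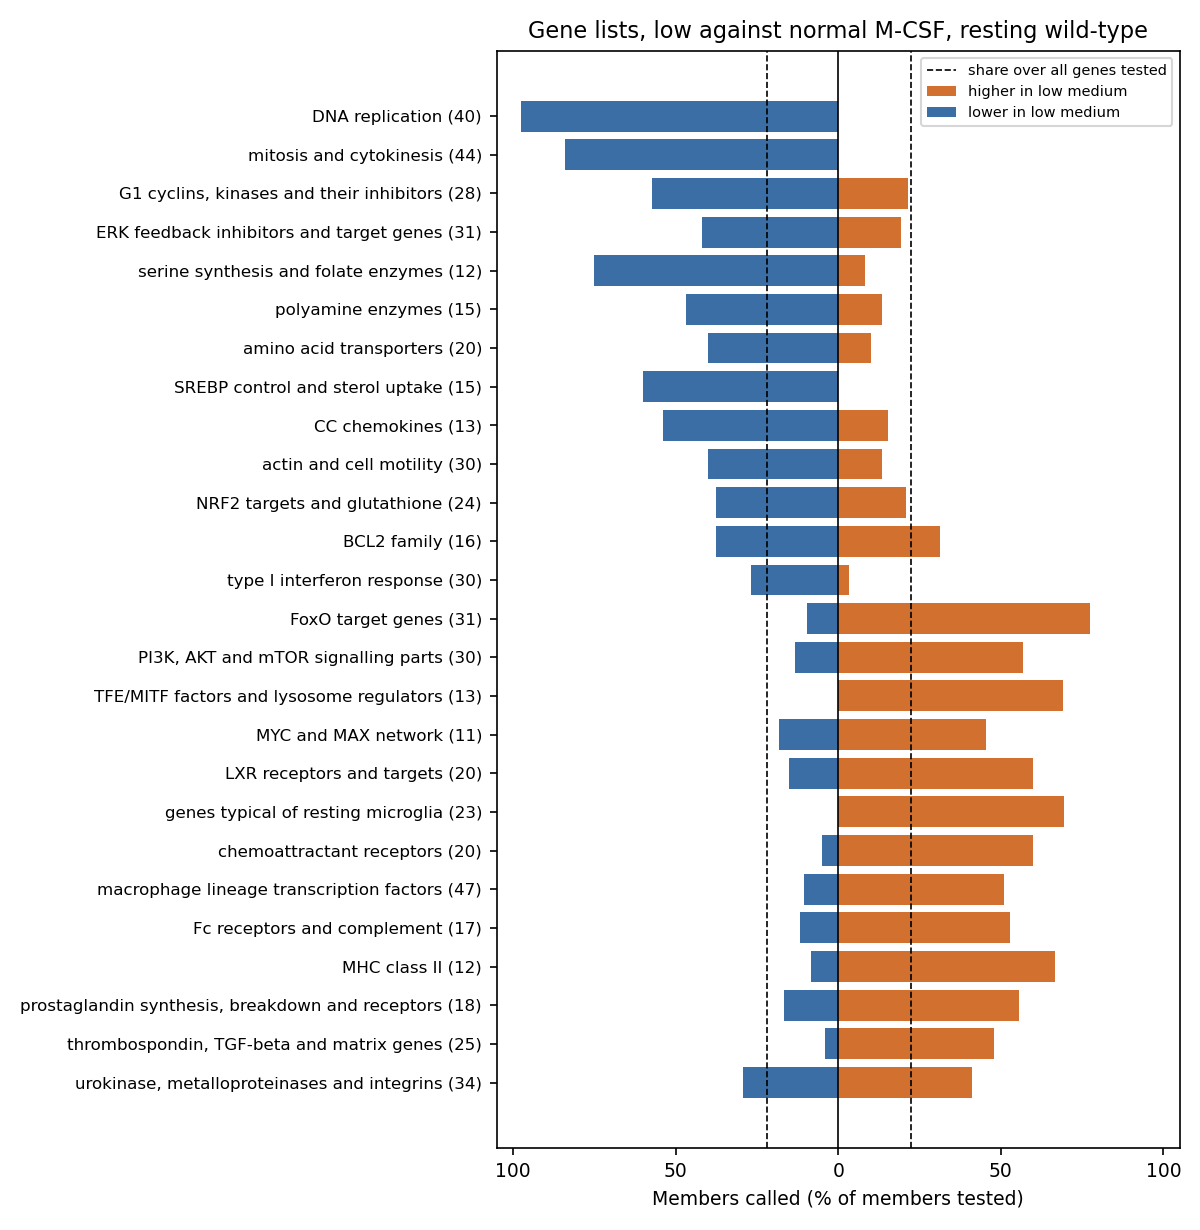
Share of each gene list called in low against normal M-CSF in resting wild-type macrophages, in percent of the members tested (number of members in parentheses). Bars to the right count members that rose and bars to the left members that fell, and dashed lines mark the shares over all genes tested, 22.4% and 21.9%. DNA replication, serine and folate, and mitosis genes reach furthest to the left, and FoxO target genes furthest to the right.

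The cells carried the markers of macrophages in both media. All 14 markers of macrophages were detected, and their summed level was 8619 to 9686 CPM in normal and 12780 to 16049 CPM in low medium. Of the 14, 8 rose, among them the surface protein Adgre1 (from 262 to 546 CPM) and lysozyme Lyz2 (from 2603 to 4994 CPM). Cd14, an LPS co-receptor, was lower by -0.42 on the log2 scale with an edgeR adjusted p of 0.050, a call that was lost when any of 7 of the 8 libraries was left out (edgeR adjusted p = 0.063 to 0.27). Markers of most other cell types were low. The 12 markers of erythroid, megakaryocyte and mast cells were an exception by their sum, though most of them had no count. They summed to 345 to 465 CPM in normal and 443 to 562 CPM in low medium. Of the 12, 9 were at 0 in all normal-medium libraries and 10 in all low-medium libraries. Only 1 of these 12 had enough counts to be tested, and it was not called. The 15 markers of neutrophils summed to 76.7 to 97.5 CPM in normal and 130 to 161 CPM in low medium, and 3 of 12 tested rose. Stromal markers summed to 1.63 to 4.44 and 2.85 to 4.59 CPM, and 1 of 2 tested rose. Markers of B, T and NK cells summed to 2.07 to 5.67 and 5.12 to 7.53 CPM, with Cd3e, Cd8a and Ncr1 at 0 in all 8 libraries. Of these lymphocyte markers, 1 of 2 tested rose. The 10 markers of dendritic cells summed to at most 9.57 CPM in any library, with Xcr1 and Cd209a at 0 in all 8. Of 3 dendritic markers tested, 1 rose, and the largest log2 fold change was 5.22 at these low levels. Osteoclast markers summed to 70.5 to 96.2 and 125 to 165 CPM, most of it from Nfatc1 and Atp6v0d2, and the osteoclast receptor Calcr was at 0 in all 8. Monocyte markers rose as a sum from 178 to 243 CPM to 902 to 919 CPM, nearly all of it from Ccr2 (from 94.9 to 477 CPM) and F13a1 (from 41.4 to 369 CPM), which macrophages also express, while the defining monocyte gene Ly6c2 fell (from 22.9 to 4.53 CPM). Whether a change in the mix of cells had a part in the results below was not tested.

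The largest rises and falls by the naming rule spanned secreted, metabolic and signalling genes. Thbs1, which encodes the secreted glycoprotein thrombospondin 1 and lies at chr2:118111876-118127133 in mm10, had 2.17, 0.972, 2.68 and 1.55 CPM in normal medium and 138, 134, 135 and 191 CPM in low medium. The 2 groups were separated by a wide gap, and low-medium library 4 stood above the other low-medium libraries. Samd4, an RNA-binding translational regulator, had 0, 0.0608, 0.841 and 0.985 CPM in normal medium and 25.6, 37.5, 27.7 and 31.1 CPM in low medium, a rise of 6.20 ± 0.51 on the log2 scale that rests on very few counts in normal medium. Plxdc2, a membrane receptor (from 6.75 to 159 CPM), rose by 4.54 ± 0.26. Hpgd, the enzyme that inactivates prostaglandins, had 7.61, 4.68, 5.97 and 6.19 CPM in normal medium and 141, 108, 157 and 134 CPM in low medium. Its 4 low-medium libraries each held over 10 times the level of any normal-medium library. Prdm1, the transcriptional repressor BLIMP-1 (from 2.62 to 43.5 CPM), Nuak1, an AMPK-related kinase (from 3.66 to 46.5 CPM), Gab1, a docking adaptor of receptor tyrosine kinases (from 1.56 to 20.5 CPM), the lipid transporter relative Abca9 (from 3.98 to 50.7 CPM) and the organelle proton exchanger Slc9a7 (from 6.36 to 77.1 CPM) rose as well, by 3.61 to 4.05 on the log2 scale.

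Among the 12 largest falls were 3 monocyte-attracting chemokines and enzymes of amino acid and polyamine synthesis. Slc7a5, the light chain of the LAT1 transporter for large neutral amino acids, had 47.6, 19.4, 22.6 and 24.6 CPM in normal medium and 2.30, 3.71, 1.75 and 0.671 CPM in low medium. It fell by 3.71 ± 0.42 on the log2 scale (edgeR adjusted p = 7.00e-09). Cdca7, a MYC- and E2F-linked nuclear protein gene (from 26.1 to 2.73 CPM), Trip13, an ATPase of the spindle checkpoint (from 42.5 to 5.14 CPM), and Ppa1, the cytosolic pyrophosphatase (from 25.2 to 3.04 CPM), fell with it. Asns, asparagine synthetase (from 45.9 to 6.36 CPM), and Aldh18a1, which starts proline synthesis (from 29.2 to 3.99 CPM), fell too, with log2 fold changes of -2.86 and -2.86. The naming rule took only genes without overlap between the media, so the separation of these genes was set by the choice.

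**Figure D2:**
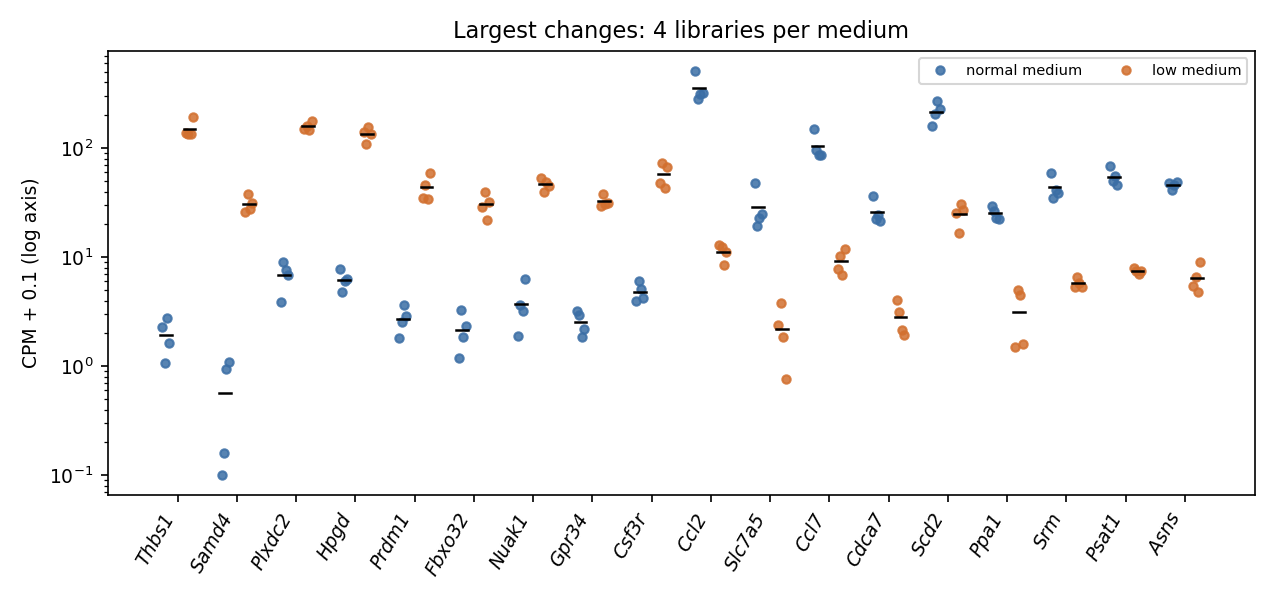
CPM + 0.1 on a log axis for genes with the largest rises (left) and falls (right) by the naming rule, with 1 point per library, 4 in normal and 4 in low medium, and a bar at the mean. Thbs1 and Samd4 lie below 3 CPM in normal medium and at 25.6 CPM or more in every low-medium library. The groups do not overlap for any gene drawn, as the naming rule required.

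The most abundant transcripts were called more often than genes in general. Of the 240 genes with a mean of 500 CPM or more over the 2 media, 54.6% were called, against 44.3% of all genes. The highest means in normal medium belonged to Tmsb4x, the iron storage chain Fth1, the cytoskeletal actin Actb, the secreted phosphoprotein Spp1 and the other ferritin chain Ftl1, and in low medium Lyz2 stood in place of Spp1. An identifier without a matched symbol was also among the 5 highest in low medium and is not described. Fth1 (from 10283 to 9491 CPM) and Ftl1 (from 5099.9 to 4504 CPM) were not called. Actb was not called either (from 8494 to 6747 CPM, edgeR adjusted p = 0.18), and without normal-medium library 1, where it was lowest, it was called lower (edgeR adjusted p = 0.042). Tmsb4x fell (from 13496 to 8986 CPM, edgeR adjusted p = 0.0049), and without that library its adjusted p was 0.097. Spp1 had 7049, 5135, 4235 and 5832 CPM in normal medium and 1722, 1125, 1688 and 1010.2 CPM in low medium. All 4 low-medium libraries lay far below the lowest normal-medium library, a fold change of -2.005 ± 0.19 on the log2 scale.

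The receptor for M-CSF and 3 other cytokine receptor genes rose, while Csf1 itself was not called. Csf1r had 693, 371, 435 and 336 CPM in normal medium and 1001, 693, 1024 and 1059.9 CPM in low medium. The lowest low-medium library, 2, was level with the highest normal-medium library, 1, and the fold change was 1.04 ± 0.20 on the log2 scale (edgeR adjusted p = 4.17e-05). Csf3r, the receptor for G-CSF and a gene of granulocytes, had 3.88, 5.89, 5.05 and 4.08 CPM in normal medium and 48.2, 72.9, 43.1 and 66.3 CPM in low medium. It rose by 3.59 ± 0.24 on the log2 scale alongside the rise of the summed neutrophil markers given above, which lay at 76.7 to 97.5 CPM in normal and 130 to 161 CPM in low medium. The part of neutrophils in the rise of Csf3r was not tested. Csf2rb, the signalling chain shared by the receptors for GM-CSF, IL-3 and IL-5, rose from 75.99 to 217 CPM, and Csf2rb2, its mouse-specific relative for IL-3, rose from 28.00 to 48.1 CPM. These neighbouring relatives are close in sequence, so the split of reads between them is uncertain. Csf2ra, the GM-CSF-binding chain (from 222 to 215 CPM), Il3ra (from 7.14 to 8.72 CPM) and Csf1 (from 5.59 to 6.02 CPM) were not called. Csf2, the ligand GM-CSF, was at most 0.512 CPM in any library and was called higher only without normal-medium library 2 (edgeR adjusted p = 0.028), and Csf3, the ligand G-CSF, had no count in these 8 libraries, which at their depth allows up to 0.182 to 0.504 CPM (3 counts per library, for counting error only).

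The ERK feedback and target list had 31 members tested, of which 13 fell and 6 rose, with a median log2 fold change of -0.62. The inhibitors that ERK induces against itself did not move together. Dusp4, a nuclear phosphatase of ERK, had 65.1, 50.01, 48.6 and 48.3 CPM in normal medium and 9.31, 6.15, 5.84 and 9.06 CPM in low medium. Dusp6, the cytoplasmic phosphatase, had 109, 105, 87.2 and 101 CPM in normal medium and 37.5, 66.6, 35.3 and 63.95 CPM in low medium. Both were separated between the media, Dusp4 by more than Dusp6. Spred2, which blocks RAF activation, fell from 36.2 to 10.6 CPM, whereas Spred1 (from 158 to 139 CPM) and Spry2 (from 10.8 to 10.1 CPM) were not called. Dusp5, another nuclear phosphatase of ERK, rose (from 9.16 to 17.9 CPM, edgeR adjusted p = 0.0061), although its groups overlapped. The ETS factors Etv5 (from 48.2 to 9.92 CPM) and Etv1 (from 24.2 to 11.3 CPM), the AP-1 member Fosl1 (from 2.04 to 0.260 CPM), Phlda1 (from 17.03 to 6.39 CPM), the G-protein regulator Rgs1 (from 130.3 to 24.2 CPM) and the urokinase receptor Plaur (from 15.4 to 3.67 CPM) fell too.

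Fos, Junb, Jund and Egr1, immediate-early members of the same list, rose, while others of that kind did not. Fos had 48.6, 39.1, 48.9 and 35.03 CPM in normal medium and 95.3, 178, 105 and 199.6 CPM in low medium. Every low-medium library exceeded every normal-medium library. Junb rose from 52.2 to 91.3 CPM and Jund from 88.8 to 165 CPM, and Egr1 rose from a low level (from 2.18 to 4.76 CPM). Jun, their partner, was not called (from 288 to 205 CPM), but it was called lower without normal-medium library 1 or low-medium library 2 (edgeR adjusted p = 0.023 and 0.017). Myc had 27.3, 17.02, 27.9 and 26.6 CPM in normal medium and 2.68, 1.66, 4.23 and 7.22 CPM in low medium, and fell by 2.67 ± 0.33 on the log2 scale.

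FoxO target genes were the list with the largest share of rises among those of over 20 members: of 31 tested, 24 rose and 3 fell, with a median log2 fold change of 1.004. Among receptors and adaptors upstream of AKT, Igf1r had 7.22, 17.8, 8.64 and 11.8 CPM in normal medium and 52.7, 49.4, 46.9 and 70.8 CPM in low medium. The insulin receptor Insr (from 9.40 to 30.3 CPM) and the adaptor Irs2 (from 9.95 to 29.8 CPM) rose as well. Fbxo32, the ubiquitin ligase atrogin-1 of muscle wasting, had 1.09, 3.16, 1.76 and 2.25 CPM in normal medium and 28.96, 39.8, 21.6 and 31.9 CPM in low medium. Pink1, the kinase that marks damaged mitochondria, had 10.2, 6.99, 9.03 and 7.74 CPM in normal medium and 54.4, 40.2, 59.3 and 75.7 CPM in low medium. For all 3 genes given by library, which were among the list's largest rises, the 2 media were separated. Sesn1, a stress-induced brake on mTORC1 (from 34.9 to 105 CPM), the cyclin-dependent kinase inhibitor Cdkn1b (from 19.95 to 44.5 CPM), Ccng2 (from 13.9 to 30.6 CPM), Txnip, which restrains glucose uptake (from 279.9 to 697 CPM), and Foxo3 itself (from 16.4 to 32.9 CPM) rose. Klf2 (from 45.9 to 16.2 CPM) and Sod2 (from 109 to 78.1 CPM) were among the falls. Sod2 lost its call without any of 3 libraries (edgeR adjusted p = 0.068 to 0.23). The FoxO core letters GTAAACA, searched on both strands, stood in 4 of the 35 promoters found for the list (11.4%) and in 3.65% of all promoters of the table. They also stood in 8.11% of mitosis and 5.26% of replication promoters, lists whose genes fell.

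Of 30 genes for parts of the PI3K, AKT and mTOR pathway, 17 rose and 4 fell, with a median of 0.66. Catalytic subunits Pik3ca (from 83.97 to 171 CPM) and Pik3cg (from 93.1 to 182 CPM) rose and Pik3cb fell (from 28.4 to 16.5 CPM). Inpp4b, a phosphatase that opposes them, rose from 38.9 to 105 CPM. Of the mTORC1 regulators, the activating GTPase Rheb fell (from 85.5 to 45.95 CPM), and the inhibitors Deptor (from 9.99 to 29.5 CPM), Tsc1 (from 27.7 to 61.3 CPM) and Sesn2 (from 6.44 to 15.7 CPM) rose. The translation repressors split, since Eif4ebp1 fell from 54.7 to 24.4 CPM and Eif4ebp2 rose from 169 to 466 CPM. Mtor was lower (from 11.9 to 8.41 CPM), with a call that was lost in 7 of the 8 omissions of a library (edgeR adjusted p = 0.060 to 0.16). In the list of lysosomal regulators 9 of 13 rose and none fell, with a median of 0.67, including Tfeb (from 9.53 to 25.8 CPM), Tfe3 (from 45.5 to 75.95 CPM), Mitf (from 42.3 to 86.9 CPM) and the proton pump subunit Atp6v0d2 (from 17.8 to 41.6 CPM).

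**Figure D3:**
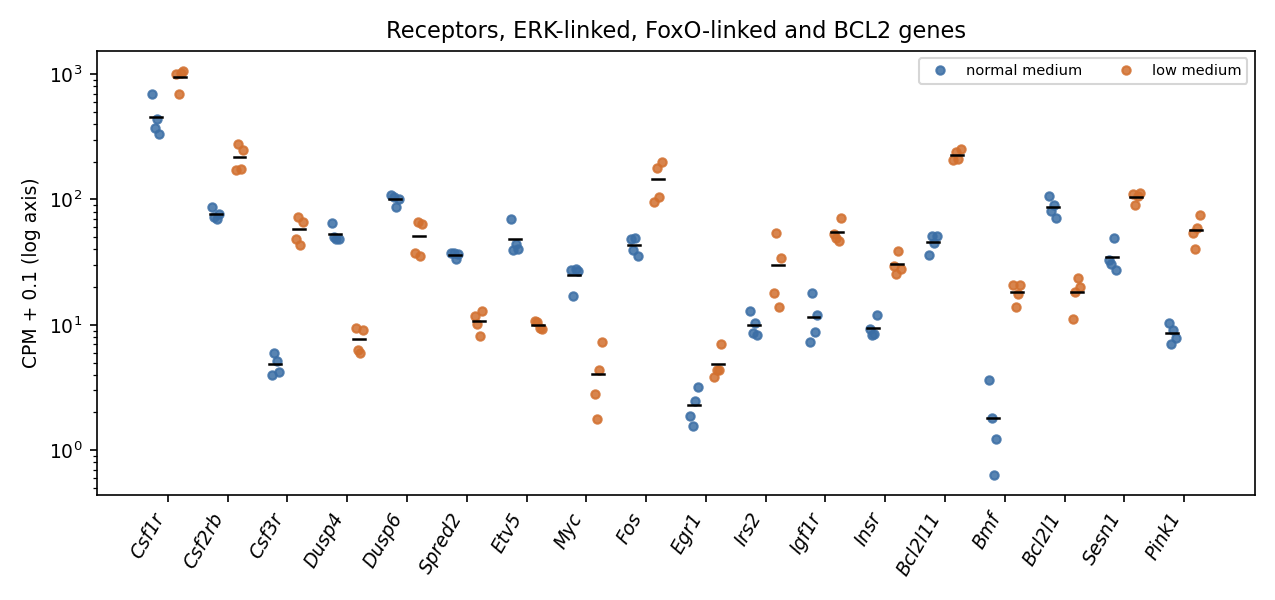
CPM + 0.1 on a log axis for receptor, ERK-linked, FoxO-linked and BCL2-family genes, with 1 point per library and a bar at the mean of 4 libraries per medium. Dusp4, Spred2, Etv5 and Myc lie lower in low medium and Igf1r, Bcl2l11, Bmf and Pink1 higher, while Fos and Egr1 lie above their normal-medium levels.

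Genes of the dividing cell fell almost as a whole. Of 40 DNA replication genes 39 fell and none rose, with a median of -1.61, and of 44 mitosis and cytokinesis genes 37 fell and none rose, with a median of -1.23. In bulk RNA, fewer dividing cells and less RNA of these genes per cell cannot be told apart. The promoters of 4 such genes are shown because the lists differed in the motifs that these windows hold. Each window runs from 250 bases before to 50 bases after the start of the gene, 5′ to 3′ on the strand of the gene, from RefSeq on GRCm38.p6, the build also called mm10. Mcm5 and Mcm6 encode parts of the replicative helicase, Ccnb2 a mitotic cyclin and Cdk1 the mitotic kinase. In each window capitals mark every match to the E2F, CHR and NF-Y letters spelled out after the sequences:
Mcm5, chr8:75109259-75109558, plus strand: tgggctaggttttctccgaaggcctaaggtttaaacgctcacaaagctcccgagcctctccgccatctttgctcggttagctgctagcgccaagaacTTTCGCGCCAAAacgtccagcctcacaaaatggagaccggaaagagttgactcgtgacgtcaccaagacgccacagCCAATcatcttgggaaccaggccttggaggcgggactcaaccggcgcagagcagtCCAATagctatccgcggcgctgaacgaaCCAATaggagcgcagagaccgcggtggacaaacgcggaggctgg
Mcm6, chr1:128359656-128359955, minus strand: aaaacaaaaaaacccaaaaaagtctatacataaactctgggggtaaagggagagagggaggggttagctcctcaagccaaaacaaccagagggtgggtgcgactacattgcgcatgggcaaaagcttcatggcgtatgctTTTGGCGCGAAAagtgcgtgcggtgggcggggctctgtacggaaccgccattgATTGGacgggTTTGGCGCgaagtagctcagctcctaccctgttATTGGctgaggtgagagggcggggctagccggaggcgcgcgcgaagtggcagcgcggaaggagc
Ccnb2, chr9:70421505-70421804, minus strand: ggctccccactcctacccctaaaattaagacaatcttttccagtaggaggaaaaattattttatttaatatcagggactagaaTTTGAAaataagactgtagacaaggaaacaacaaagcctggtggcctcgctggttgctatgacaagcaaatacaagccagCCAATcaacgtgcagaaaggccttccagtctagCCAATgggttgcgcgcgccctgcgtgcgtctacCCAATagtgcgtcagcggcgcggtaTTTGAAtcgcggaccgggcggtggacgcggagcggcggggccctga
Cdk1, chr10:69352863-69353162, minus strand: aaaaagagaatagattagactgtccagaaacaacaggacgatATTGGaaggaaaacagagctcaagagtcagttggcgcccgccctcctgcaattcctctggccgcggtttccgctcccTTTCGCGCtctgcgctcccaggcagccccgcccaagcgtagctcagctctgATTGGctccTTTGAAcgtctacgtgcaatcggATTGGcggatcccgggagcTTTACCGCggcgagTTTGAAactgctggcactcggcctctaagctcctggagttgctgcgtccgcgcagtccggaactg

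The E2F motif was searched as TTTNNCGC, the CHR as TTTGAA and the NF-Y motif as CCAAT, each on both strands. The E2F letters and their reverse complement can overlap, as in the longest capital run of Mcm5, which holds 2 matches. E2F letters stood in 39.5% of the 38 replication promoters found in the table and in 10.8% of the 37 mitosis promoters, against 5.17% of all 32851 promoters. CHR letters showed the opposite order, with 75.7% of mitosis and 13.2% of replication promoters against 17.9% of all. NF-Y letters stood in 78.4% of mitosis, 57.9% of replication and 37.4% of all promoters. Over all called genes the shares lay closer together: E2F letters were in 11.2% of promoters of genes that fell, 7.13% of those that rose and 7.96% of those tested and not called. A match is a run of letters and was not tested as a binding site.

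The 4 genes shown fell. Mcm5 had 75.7, 66.97, 74.8 and 65.4 CPM in normal medium and 11.99, 12.2, 12.6 and 9.90 CPM in low medium. Mcm6 fell from 123 to 43.5 CPM and Ccnb2 from 147 to 65.8 CPM. Cdk1 had 242, 175, 174 and 156 CPM in normal medium and 59.3, 61.9, 51.4 and 38.3 CPM in low medium. None of the low-medium libraries reached the lowest normal-medium library in either gene given in full. Rrm2, the subunit that limits ribonucleotide reductase, fell by 2.82 ± 0.29 on the log2 scale, the largest fall of the replication list. Licensing and elongation genes fell alike, among them Mcm2 (from 39.1 to 6.27 CPM), Cdc45 (from 21.97 to 3.53 CPM), Cdc6 (from 28.8 to 6.49 CPM), the polymerase subunit Pold1 (from 23.7 to 4.60 CPM) and the clamp Pcna (from 391 to 116 CPM). Mcm10 was the 1 member not called (from 46.5 to 24.1 CPM), and without normal-medium library 1 or low-medium library 2 it was called lower (edgeR adjusted p = 0.044 and 0.032).

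Mitosis genes fell by less and varied more between the low-medium libraries. The summed level of the list was 7169 to 9769 CPM in normal medium and 3782 to 7232 CPM in low medium, so the ranges overlapped at their ends. Top2a, the topoisomerase of chromosome separation, had 906, 1351, 1212 and 1278 CPM in normal medium and 534, 829, 392 and 345 CPM in low medium. Low-medium library 2 was the highest of its group and came near the lowest normal-medium library. Without it 39 of 44 members were called and the median was -1.43. The master regulators Mybl2 (from 19.6 to 2.51 CPM) and Foxm1 (from 35.01 to 8.81 CPM), the cytokinesis scaffold Anln (from 252 to 45.98 CPM) and the kinase Aurkb (from 53.3 to 13.5 CPM) fell furthest. Cenpe, Cenpf, Cenpa, Incenp, Knl1, Kif23 and Smc4 were not called, with log2 fold changes between -0.47 and -0.08. Without low-medium library 2 Knl1 and Kif23 were called lower (edgeR adjusted p = 0.0066 and 0.0040).

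In the list of G1 cyclins, kinases and inhibitors 16 of 28 fell and 6 rose, with a median of -0.86. Ccnd1, the cyclin D that growth factors induce, had 1078, 1687, 1327 and 1826 CPM in normal medium and 226, 341, 239.5 and 285 CPM in low medium. No low-medium library came near the normal-medium range. Its relatives Ccnd2 (from 107 to 33.6 CPM) and Ccnd3 (from 25.8 to 12.8 CPM), cyclin E genes Ccne1 (from 30.99 to 7.999 CPM) and Ccne2 (from 124 to 28.3 CPM) and the kinase Cdk4 (from 77.8 to 33.6 CPM) fell. Of the inhibitors, Cdkn1b rose as given above and Cdkn2c (from 58.3 to 27.6 CPM) and Cdkn2d (from 46.9 to 15.2 CPM) fell, while Cdkn1a was high in both media and not called (from 727 to 847 CPM). The antiproliferative genes Btg1 (from 148 to 304 CPM) and Btg2 (from 29.2 to 115 CPM) and the pocket protein Rb1 (from 28.9 to 47.4 CPM) rose.

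The same change of medium lowered many of these genes further in Trem2 knockout cells. Reads of Trem2 checked the labels: they were 254 to 363 CPM and 371 to 517 CPM in normal and low medium in wild-type libraries, and 30.5 to 42.6 and 99.0 to 132 CPM in knockout libraries. Trem2 itself rose in wild-type cells by 0.59 ± 0.19 on the log2 scale. In knockout cells 2986 genes rose and 2436 fell with low medium, or 26.6% and 21.7% of those tested. All 40 replication and all 44 mitosis genes fell, with medians of -2.63 and -3.29. The interaction of genotype and medium was called for 519 genes, or 4.62% of those tested, and for 19 of 40 replication and 39 of 44 mitosis genes. Of the 519, 158 (30.4%, or 1.41% of all tested) had a higher log2 fold change in knockout cells and 361 (3.21% of all tested) a lower one. In a fit of these 4 groups alone the share with a higher one was 20.2%. With libraries summed in pairs 97 genes had a called interaction. Pclaf, a PCNA-binding factor, fell from 418 to 159 CPM in wild-type and from 495 to 15.9 CPM in knockout cells (edgeR interaction adjusted p = 5.71e-08). Uhrf1, which keeps up DNA methylation, fell from 63.99 to 16.6 CPM in wild-type and from 55.7 to 1.49 CPM in knockout cells (edgeR interaction adjusted p = 5.71e-08). Spc24, Spc25, Mastl and Tpx2, all of mitosis, were also among the 8 genes with the smallest interaction p, and the fall of Mastl in wild-type cells (from 46.2 to 32.02 CPM) lost its call in 7 of the 8 omissions of a library (edgeR adjusted p = 0.056 to 0.15). The other two were S100a4, a calcium-binding protein gene, which fell from 1727 to 736 CPM in wild-type and from 1260.3 to 136 CPM in knockout cells, and Serpinb6b, a protease inhibitor gene, which was not called in wild-type cells (from 24.6 to 33.7 CPM) and went from 9.83 to 1.37 CPM in knockout cells. Without normal-medium library 1 or low-medium library 3 Serpinb6b was called higher in wild-type cells (edgeR adjusted p = 0.040 and 0.043). In normal medium the means of the 2 genotypes lay within 2-fold of each other for the cell cycle genes plotted.

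**Figure D4:**
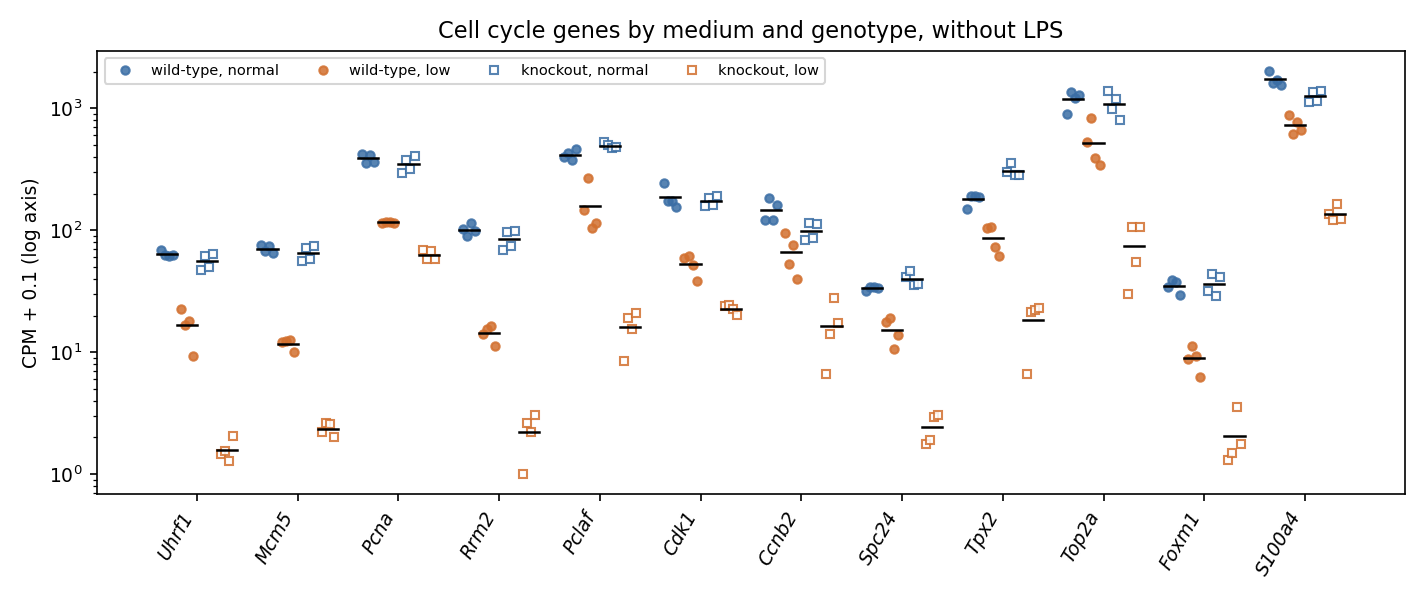
CPM + 0.1 on a log axis for cell cycle genes and S100a4 by medium and genotype without LPS, with 1 point per library and a bar at the mean of 4 libraries. For Uhrf1, Pclaf, Spc24 and Tpx2 the low-medium knockout libraries lie below the low-medium wild-type libraries, and the normal-medium means of the 2 genotypes lie within 2-fold of each other.

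Of the genes that rose in wild-type cells 76.0% also rose in knockout cells, or 64.2% of the knockout's rises, and 13 fell there. Of the genes that fell in wild-type cells 72.0% fell in knockout cells, or 72.8% of the knockout's falls, and 16 rose. The 2 comparisons share no library. Of the 519 interaction genes, 335 had the same sign in both genotypes and a larger change in the knockout, 37 a smaller one, and 147 had opposite signs.

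**Figure D5:**
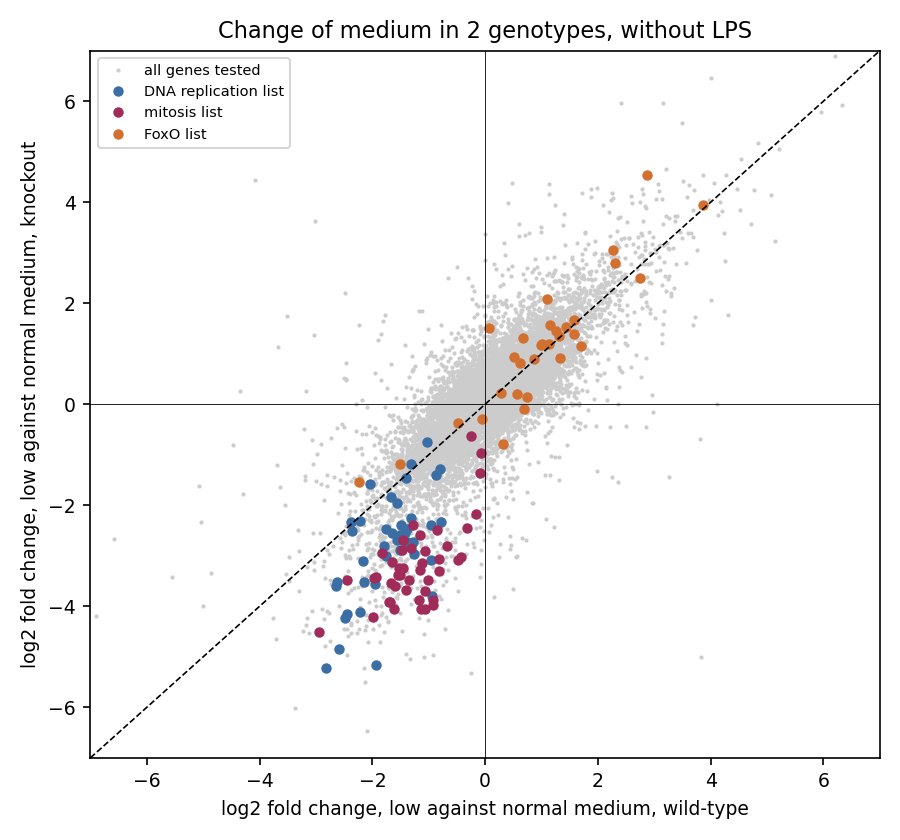
Log2 fold change of low over normal medium in wild-type (horizontal) and Trem2 knockout macrophages (vertical) without LPS, with 1 point per gene tested and a dashed line of equal change; 5 genes lie outside the axes. Mitosis and DNA replication genes lie below the line, with a larger fall in knockout cells, and FoxO target genes lie near it.

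In the MYC and MAX network list 5 of 11 rose and 2 fell. The rises were the repressors of MYC targets: Mxd4 had 16.9, 12.3, 28.8 and 24.6 CPM in normal medium and 77.7, 52.9, 196 and 273 CPM in low medium, and Mxi1 (from 27.9 to 76.1 CPM), Mnt (from 30.9 to 63.6 CPM) and Mga (from 85.5 to 175 CPM) rose by less. Every low-medium library lay above every normal-medium library for Mxd4. Serine synthesis and folate enzymes fell in 9 of 12 and rose in 1, with a median of -2.05, the lowest of all lists. Mthfd2, the mitochondrial folate enzyme of growing cells, had 194, 301, 173 and 301 CPM in normal medium and 26.4, 48.7, 34.7 and 33.6 CPM in low medium. Phgdh (from 19.5 to 1.47 CPM), Psat1 (from 54.7 to 7.40 CPM) and Shmt2 (from 44.01 to 7.35 CPM) fell too. Of polyamine enzymes 7 of 15 fell and 2 rose: the synthases Odc1 (from 73.03 to 14.8 CPM) and Srm (from 43.5 to 5.66 CPM) and the hypusinated factor Eif5a (from 342 to 121 CPM) fell, and Sat1, which acetylates polyamines for export, rose from 266 to 565 CPM.

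Transporter genes changed in both directions, and over all genes tested 22.4% rose and 21.9% fell. Of 20 amino acid transporters 8 fell and 2 rose. Slc43a2, the LAT4 exporter of neutral amino acids, had 185, 286, 228 and 294 CPM in normal medium and 1090.0, 1297, 1166 and 1126 CPM in low medium. It rose from 248 to 1169.7 CPM as the exchanger Slc7a5, the glutamine carrier Slc1a5 (from 40.5 to 10.7 CPM) and the arginine carrier Slc7a1 (from 56.7 to 10.8 CPM) fell. Of 11 glucose and lactate transport genes 4 fell and 2 rose. The glucose transporter Slc2a1 (from 76.9 to 20.3 CPM), its relative Slc2a6 (from 24.2 to 13.9 CPM) and the lactate carriers Slc16a1 (from 18.9 to 5.21 CPM) and Slc16a3 (from 77.7 to 16.1 CPM) fell. The urate and sugar transporter Slc2a9 (from 14.1 to 21.7 CPM) and the sugar phosphate exchanger Slc37a2 (from 109.7 to 168 CPM) rose, and each call was lost when any 1 of 4 libraries was left out (edgeR adjusted p = 0.056 to 0.26 and 0.051 to 0.076). Of 15 iron genes 4 rose and 4 fell, which is near the shares of all genes. The exporter Slc40a1 (from 30.2 to 93.8 CPM), transferrin, Trf (from 26.5 to 174 CPM), and the ferroxidase Cp (from 1.41 to 13.8 CPM) rose. The transferrin receptor Tfrc (from 42.6 to 26.4 CPM), the zinc and iron importer Slc39a14 (from 18.9 to 5.09 CPM) and haem oxygenase Hmox1 (from 71.1 to 35.2 CPM) fell.

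Cholesterol export and sterol uptake moved in opposite directions. LXR receptors and targets rose in 12 of 20 and fell in 3, with a median of 0.76, and SREBP control and uptake genes fell in 9 of 15 with none rising, with a median of -0.68. Apoe (chr7:19696244-19701310) and its neighbours Apoc1 (chr7:19689480-19692659) and Apoc2 (chr7:19671579-19677941) rose together. Apoc2, the cofactor of lipoprotein lipase, had 10.7, 5.23, 7.57 and 9.85 CPM in normal medium and 54.6, 41.5, 65.97 and 70.2 CPM in low medium. Apoc1 stayed under 5 CPM (from 0.390 to 4.19 CPM). Mylip, a ubiquitin ligase induced by LXR, rose from 50.8 to 282 CPM, and the exporter Abca1 from 55.2 to 333 CPM, but its partner Abcg1 was not called (from 41.7 to 55.99 CPM) unless normal-medium library 4 was left out (edgeR adjusted p = 0.0099). The desaturases Scd1 (from 6.54 to 1.62 CPM) and Scd2 (from 215 to 24.8 CPM), which LXR and SREBP-1c both induce, and Srebf1 (from 27.6 to 19.3 CPM) were the 3 falls. The fall of Srebf1 lost its call when any 1 of 7 libraries was left out (edgeR adjusted p = 0.058 to 0.13). Sqle, an enzyme of sterol synthesis (from 79.3 to 24.2 CPM), and the scavenger receptors Msr1 (from 334 to 141 CPM) and Cd36 (from 526 to 262 CPM) fell.

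Among CC chemokines 7 of 13 fell and 2 rose. Ccl2 (chr11:82035577-82037452), Ccl7 (chr11:82045712-82047525) and Ccl12 (chr11:82101845-82103399) lie near each other on chromosome 11, bind the receptor CCR2, and had the 3 largest falls of the list. Ccl2 had 509.6, 279, 315 and 318 CPM in normal medium and 12.8, 12.2, 8.32 and 11.1 CPM in low medium. Ccl7 had 149.8, 96.1, 87.1 and 86.7 CPM in normal medium and 7.66, 10.2, 6.71 and 11.8 CPM in low medium. Ccl12 had 33.2, 21.5, 26.8 and 14.3 CPM in normal medium and 0.510, 4.74, 1.31 and 4.36 CPM in low medium. Normal-medium library 1 was the highest for all 3 genes, and no low-medium library came near the normal-medium ones. The log2 fold changes were -4.998 ± 0.23, -3.53 ± 0.22 and -3.15 ± 0.34, in that order. Ccl3 (from 81.95 to 43.1 CPM), Ccl4 (from 101 to 38.6 CPM), Ccl6 (from 196 to 129 CPM) and Ccl9 (from 865 to 430.1 CPM) fell by less. None of 10 CXC chemokines fell and 5 rose, including Cxcl16, a membrane-bound ligand that also takes up oxidised lipid (from 107 to 224 CPM), and the neutrophil attractant Cxcl2 (from 52.6 to 102 CPM). Without low-medium library 2, 3 of the 10 rose.

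Chemoattractant receptors rose in 12 of 20 tested and fell in 1, with a median of 0.91. Ccr2, the receptor of the 3 chemokines above, had 61.4, 108, 84.6 and 126 CPM in normal medium and 498, 493, 495 and 423 CPM in low medium. Cx3cr1, the receptor for fractalkine, had 188, 241, 196 and 244 CPM in normal medium and 1126, 1278, 1140.4 and 997 CPM in low medium. Cxcr4, which holds myeloid cells in the marrow, had 25.9, 12.2, 17.3 and 12.8 CPM in normal medium and 138, 142, 165 and 159 CPM in low medium. For all 3 receptors, which were among the list's largest rises, every low-medium library was above every normal-medium library, by several fold. The chemerin receptor Cmklr1 (from 1.98 to 13.8 CPM) and the C3a receptor C3ar1 (from 1009 to 1929 CPM) rose. The C5a receptor C5ar1 was the 1 that fell (from 558 to 239 CPM). Of these, Ccr2 and Cx3cr1 rose by less in knockout cells (1.05 against 2.33, and 1.62 against 2.39 on the log2 scale), each with a called edgeR interaction (adjusted p = 6.32e-04 and 0.038).

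Genes known from resting microglia, the macrophages of the brain that depend on CSF1R, rose in 16 of 23 and fell in none, with a median of 0.99. Fcrls, an Fc receptor-like gene, had 75.96, 71.1, 62.8 and 71.7 CPM in normal medium and 666, 628, 724 and 652 CPM in low medium. Gpr34, a receptor for lysophosphatidylserine, had 3.11, 2.86, 1.76 and 2.11 CPM in normal medium and 29.3, 38.2, 30.9 and 31.1 CPM in low medium. Entpd1, the ATP-cleaving CD39, had 17.5, 15.8, 17.98 and 14.2 CPM in normal medium and 122, 97.97, 137 and 118 CPM in low medium. None of the 3, which were among the list's largest rises, overlapped between the media. Olfml3 (from 11.3 to 74.3 CPM), Mef2c (from 217 to 561 CPM), Tgfbr1 (from 58.5 to 155 CPM), Il10ra (from 18.6 to 62.3 CPM) and Slco2b1 (from 21.3 to 69.5 CPM) rose too. The most specific microglial genes did not follow: Sall1 was not tested for lack of counts, Tmem119 stayed near 1 CPM (from 0.666 to 0.554 CPM), and P2ry12 was not called (from 16.3 to 23.2 CPM), although it was called higher in 4 of the 8 omissions of a library (edgeR adjusted p = 0.038 to 0.046).

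The list of lipid-associated and damage-associated macrophage genes split, with 9 of 29 rising, 10 falling and a median of 0.02, close to that of all genes. Clec7a, the beta-glucan receptor dectin-1, had 56.5, 20.3, 26.6 and 18.4 CPM in normal medium and 253, 193, 260.2 and 210.3 CPM in low medium. The inhibitor of metalloproteinases Timp2 (from 161 to 507 CPM), the receptor kinase Axl (from 17.1 to 37.2 CPM), Igf1 (from 614 to 1074 CPM) and the acid lipase Lipa (from 945 to 1715 CPM) rose. The galectin Lgals3 (from 2354 to 1093 CPM), lipoprotein lipase Lpl (from 3653 to 2511 CPM) and the cathepsin Ctsl (from 1056 to 701 CPM) fell. The droplet protein Plin2 (from 360.5 to 404 CPM) and the lipid carrier Fabp5 (from 293 to 311 CPM) were not called.

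Receptors for uptake and immune complexes went both ways. Fc receptor and complement genes rose in 9 of 17 and fell in 2, with a median of 0.47: the activating receptor Fcgr3 (from 250.4 to 486 CPM) rose, and properdin, Cfp, fell (from 319 to 219 CPM), a call lost without any of 4 libraries (edgeR adjusted p = 0.050 to 0.11). Of 24 scavenger and lectin receptors 10 rose and 7 fell. The lectins Clec4a1 (from 10.5 to 42.7 CPM), Clec4a3 (from 17.2 to 78.3 CPM) and Clec4n (from 6.30 to 26.5 CPM) and the mannose receptor Mrc1 (from 459 to 913 CPM) rose, and Clec4e, which senses mycobacterial glycolipid, fell (from 91.3 to 45.5 CPM). Clec4a genes lie in 1 cluster of close relatives, so their separate levels are uncertain. Mertk, the kinase that clears dying cells, rose (from 8.32 to 27.6 CPM) as did the inhibitory receptor Cd300a (from 42.2 to 123 CPM). The 19 uptake genes had 8 rises and 4 falls, against 22.4% and 21.9% of all genes tested. The 4 falls were 2 without low-medium library 2 or 4, or normal-medium library 1 or 3.

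Of 47 macrophage lineage transcription factors tested 24 rose and 5 fell, with a median of 0.76. Sox4 had 21.1, 21.9, 20.3 and 29.96 CPM in normal medium and 239, 214, 205 and 229 CPM in low medium. The inhibitor of helix-loop-helix factors Id3 had 18.4, 7.66, 5.20 and 4.92 CPM in normal medium and 74.1, 107, 80.3 and 76.4 CPM in low medium. Its relative Id1 fell, by contrast, from a low level (from 10.2 to 1.59 CPM). Maf, a factor that holds macrophages out of division, rose from 528 to 1018 CPM. Zeb2 (from 444 to 1457 CPM), Irf8 (from 163 to 483 CPM), Cebpa (from 15.5 to 41.7 CPM), Runx1 (from 128 to 286 CPM) and the mRNA-decay factor Zfp36l1 (from 192 to 994 CPM) rose. Spi1, the PU.1 factor on which the lineage rests, was not called (from 178 to 153 CPM). Ets2, an ETS factor downstream of ERK, had 106, 72.4, 94.6 and 84.1 CPM in normal medium and 13.9, 13.3, 18.5 and 12.3 CPM in low medium. It fell by 2.62 ± 0.17 on the log2 scale, and Bhlhe41 (from 47.7 to 21.3 CPM) fell with it.

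In the BCL2 family the members of each role moved apart. Of 16 tested 5 rose and 6 fell. Bcl2l11, which encodes the BH3-only killer BIM, had 36.2, 50.8, 45.2 and 50.8 CPM in normal medium and 207, 237, 209 and 255 CPM in low medium. Bmf, another BH3-only gene, had 3.50, 1.70, 0.535 and 1.13 CPM in normal medium and 20.7, 13.8, 17.4 and 20.6 CPM in low medium. Both were higher in every low-medium library, by several fold. Bbc3, encoding PUMA, rose by less (from 29.7 to 47.2 CPM), Bid fell (from 42.8 to 15.3 CPM), and the p53 target Pmaip1 was not called (from 6.17 to 5.59 CPM). Of the survival genes, Bcl2l1, encoding BCL-XL, had 107, 80.2, 89.5 and 71.2 CPM in normal medium and 10.97, 18.2, 23.6 and 19.8 CPM in low medium. Bcl2 fell too (from 27.01 to 11.3 CPM), while Mcl1 rose (from 307 to 488 CPM). The pore formers Bax (from 49.3 to 29.9 CPM) and Bak1 (from 46.7 to 17.4 CPM) fell. Among caspases and their regulators 7 of 25 rose and 10 fell, against 22.4% and 21.9% of all genes tested. The caspase inhibitor Xiap (from 144 to 324 CPM) rose, and cytochrome c, Cycs (from 178 to 41.5 CPM), and the necroptosis genes Ripk3 (from 23.3 to 6.33 CPM) and Mlkl (from 18.7 to 10.6 CPM) fell. The 10 falls were 5 without low-medium library 1, and 6 without low-medium library 4 or normal-medium library 1.

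Thrombospondin 1 was joined by other genes of TGF-beta signalling. Of 25 tested in that list 12 rose and 1 fell, with a median of 0.62. The feedback inhibitors Smad7 (from 6.17 to 22.3 CPM), Smad6 (from 2.16 to 6.21 CPM), Skil (from 45.3 to 172 CPM) and Ski (from 110.3 to 229.5 CPM) rose, as did the receptor Tgfbr1 and the integrin Itgb5 (from 95.2 to 291 CPM). The ligand Tgfb1 (from 13.1 to 19.3 CPM) was not called, but was called higher without normal-medium library 2 (edgeR adjusted p = 0.049). Of 34 proteases and integrins 14 rose and 10 fell. Urokinase, Plau, had 187, 167, 135 and 201 CPM in normal medium and 26.5, 37.9, 32.99 and 35.1 CPM in low medium. It fell with its receptor Plaur and with the elastase Mmp12 (from 117 to 21.9 CPM), whereas Itga4 (from 71.7 to 221 CPM), Itga6 (from 383 to 851 CPM), Itgal (from 16.5 to 54.2 CPM) and Itgam (from 455 to 769.6 CPM) rose. Of 30 actin and motility genes 12 fell and 4 rose, and the tubulins Tubb5 (from 1111 to 348 CPM), Tubb6 (from 94.03 to 19.6 CPM) and Tuba1b (from 460.2 to 129 CPM), vinculin, Vcl (from 26.6 to 8.81 CPM), and filamin, Flna (from 319 to 132 CPM), fell.

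Genes of inflammatory mediators gave no single direction. Of 18 prostaglandin genes 10 rose and 3 fell: the constitutive cyclooxygenase Ptgs1 (from 61.2 to 208 CPM) and the receptor Ptger4 (from 10.6 to 29.5 CPM) rose with Hpgd, the phospholipase Pla2g4a fell (from 45.6 to 11.2 CPM), and the inducible Ptgs2 was low and not called (from 3.97 to 6.001 CPM). Without normal-medium library 1 or low-medium library 4 Ptgs2 was called higher (edgeR adjusted p = 0.0037 and 0.024). Of 27 cytokines and growth factors 8 rose and 6 fell, not far from the 22.4% and 21.9% of all genes. Tnf (from 30.3 to 11.5 CPM), Tnfsf9 (from 24.03 to 4.22 CPM), Gdf15 (from 38.2 to 10.5 CPM) and the receptor antagonist Il1rn (from 34.9 to 14.9 CPM) fell. Hgf (from 6.96 to 36.5 CPM), Il16 (from 11.8 to 29.04 CPM) and Vegfa (from 23.1 to 61.4 CPM) rose. Il1b (from 12.8 to 13.6 CPM) and Il6 (from 0.921 to 1.29 CPM) were low in both media and not called. The MHC class II list, which also holds the costimulatory receptor Cd40, had 8 rises and 1 fall among 12 genes tested. The fall was that of Cd40 (from 11.9 to 5.57 CPM), which is not an MHC gene, and H2-Aa (from 9.15 to 17.5 CPM) was still low. In the NRF2 and glutathione list, 9 of 24 fell and 5 rose. Nfe2l2, the NRF2 gene, rose (from 301 to 716 CPM), and its targets split, with Gclm rising (from 200.1 to 411 CPM) and Nqo1 (from 11.3 to 3.16 CPM), Gsr (from 74.1 to 35.1 CPM) and Txn1 (from 522 to 241 CPM) falling.

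The type I interferon list went different ways in the 3 comparisons of medium. Of 30 genes 8 fell and 1 rose in resting wild-type cells, a share of falls near the 21.9% of all genes, with a median of -0.22. Without low-medium library 1, 5 members fell. Ifitm3, which blocks viral entry, had 1381, 737, 967 and 792 CPM in normal medium and 366, 316, 446 and 394 CPM in low medium. Isg15, the ubiquitin-like modifier, had 14.5, 9.72, 16.4 and 14.3 CPM in normal medium and 6.89, 3.33, 8.17 and 7.55 CPM in low medium. Usp18, which removes it, had 24.2, 15.9, 21.9 and 17.7 CPM in normal medium and 9.19, 5.38, 5.40 and 7.39 CPM in low medium. In each of these the low-medium libraries lay below the normal-medium ones. In knockout cells 16 of 30 rose and 2 fell, and 5 had a called interaction of genotype and medium. In wild-type cells with LPS, where 21.4% of all genes rose and 24.2% fell in low medium, 25 of the 30 rose and none fell. An interaction of medium and LPS was called for 23 of the 30, against 23.6% of all genes.

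With LPS, 2409 genes rose and 2723 fell in low medium in wild-type cells. The interaction of medium and LPS was called for 2649 genes, and 1608 of those had fold changes of opposite sign without and with LPS. Isg15 and Usp18 had log2 fold changes of -1.09 and -1.54 without and 1.06 and 0.76 with LPS (edgeR interaction adjusted p = 4.40e-04 and 2.54e-06). Replication and mitosis genes fell under both treatments, with medians of -2.24 and -2.25 with LPS. Thbs1 rose less with LPS, by 2.54 on the log2 scale (edgeR interaction adjusted p = 1.03e-10). FoxO target genes rose in 15 of 31 and fell in 2 with LPS, with a median of 0.54, and 16 of them had a called interaction. Microglia-typical genes rose in 11 of 23 and fell in 2, and Csf1, which low medium left uncalled without LPS, rose by 1.55 with LPS (edgeR interaction adjusted p = 3.47e-05).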

How the data were processed

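Polyadenylated RNA of mouse macrophages was made into barcoded oligo-dT-primed libraries, amplified for 12 PCR cycles, per the labels' protocols, which mention no molecular identifiers. The authors deposited raw counts per gene for 32 libraries, with values that are whole numbers in the file. STAR, HTSeq, DESeq2 and mm10 are named in the submitters' processing notes, and their versions, the annotation and the strand setting are not given in the sources used here. Reads of near-identical copies (ferritins, actin, thymosin and tubulins have many pseudogenes) and of overlapping genes may be misassigned. Of 24885 numeric identifiers, 23969 (99.5% of counts) matched a mouse gene, and 916 did not and were tested but not named.

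Counts were fitted in edgeR 4.0.16 (R 4.3.3, limma 3.58.1) with TMM factors, filterByExpr, 1 mean per each of 8 groups and the quasi-likelihood test, two-sided, with Benjamini-Hochberg adjustment over 11244 genes and a threshold of 0.05. Low and normal medium were compared in wild-type cells, in knockout cells and with LPS, with the 2 interactions. Alternatives were RLE factors, DESeq2 1.42.0, no filter, the compared groups alone, a replicate block, libraries summed in pairs, glmTreat and leaving out each library.

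The libraries, the 44 gene lists and the named genes were chosen with earlier results of these data known, so no list was tested. The rule named the 12 largest rises and falls at 20 CPM or more without overlap, the CSF genes and receptors, up to 4 members per direction of each list, the 5 most abundant genes and 8 interaction genes. Further members, and the genes in the closing section outside the lists, were added after their values were seen. Fold changes of genes near 0 counts depend on the prior count. Promoters (RefSeq, GRCm38.p6, 250 bases before to 50 after a start) matched 9096 tested genes. Results for some genes are not reported here.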

Additional observations from a re-analysis of the deposited data

Results flagged for a closer look

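A single library stood away from the other 3 of its medium for 48 of 586 sets of 4 values, over 293 genes named in the text, by Dixon's test. Chance alone flags about 1 in 20. Normal-medium library 1, which also lay highest on the second principal component, gave 21 of these. Normal-medium library 1 stood apart above the other 3 for Ccl2 (509.6 CPM), Ccl3 (118 CPM), Ccl4 (159.8 CPM), Ccl7 (149.8 CPM), Cd14 (216 CPM), Cdc45 (28.6 CPM) and Cdkn2d (61.9 CPM). It also stood above them for Cmklr1 (3.18 CPM), Csf2ra (375 CPM), Dusp4 (65.1 CPM), Etv5 (69.5 CPM), Mif (595 CPM), Slc16a3 (91.8 CPM) and Sod2 (151 CPM). It also stood above them for Tlr8 (63.4 CPM), Tmsb4x (19375 CPM) and Tuba1b (628 CPM). Normal-medium library 1 stood apart below the other 3 for Aldh18a1 (24.6 CPM), Maf (336 CPM), Rb1 (19.6 CPM) and Tpx2 (149 CPM). Normal-medium library 2 stood apart above the other 3 for Csf2 (0.122 CPM) and Tgfb1 (30.6 CPM). Normal-medium library 2 stood apart below the other 3 for Myc (17.02 CPM) and Tlr2 (25.2 CPM). Normal-medium library 3 stood apart above the other 3 for Cdkn2c (69.2 CPM). Normal-medium library 3 stood apart below the other 3 for Gclm (158 CPM). Low-medium library 1 stood apart above the other 3 for Tgfb1 (43.3 CPM). Low-medium library 1 stood apart below the other 3 for Apoc1 (3.06 CPM). Low-medium library 2 stood apart above the other 3 for Csf2 (0.512 CPM), Gclm (560.1 CPM), Mef2c (611 CPM), Slc2a9 (31.5 CPM) and Spred1 (168 CPM). Low-medium library 2 stood apart below the other 3 for Ccl6 (101 CPM), Csf1r (693 CPM), Inpp4b (86.1 CPM) and Slc40a1 (69.5 CPM). Low-medium library 3 stood apart above the other 3 for Ccng2 (35.2 CPM) and Mcm6 (49.5 CPM). Low-medium library 4 stood apart above the other 3 for C3ar1 (1972 CPM), Cmklr1 (16.8 CPM), Csf1 (8.90 CPM), Egr1 (6.88 CPM), Il10ra (80.7 CPM), Thbs1 (191 CPM) and Txnip (730.2 CPM). Low-medium library 4 stood apart below the other 3 for Ccr2 (423 CPM).

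The change with medium differed between the genotypes for 519 genes and for 60 of those named in the text (edgeR interaction test). The values here are the log2 fold change in knockout cells minus that in wild-type cells. Cell cycle genes with a lower value in knockout cells were Pclaf (-3.54), Ccne2 (-3.36), Uhrf1 (-3.23), Spc25 (-3.06), Tpx2 (-2.98), Spc24 (-2.92), Mastl (-2.90) and Mcm10 (-2.84). Smaller differences were seen for Top2a (-2.69), Knl1 (-2.61), Kif23 (-2.60), Rrm2 (-2.40), Mcm5 (-2.25), Foxm1 (-2.22), Ccnd1 (-2.15) and Cenpe (-2.13). Below these came Ccne1 (-2.06), Cenpf (-1.995), Ccnd2 (-1.56), Aurkb (-1.46), Ccnb2 (-1.42), Incenp (-1.26), Cdk1 (-1.11) and Mcm6 (-1.08). The last of them was Pcna (-0.71). Other genes with a lower value were Serpinb6b (-3.23), S100a4 (-1.98), Plau (-1.96), Mthfd2 (-1.93), Lpl (-1.50), Scd2 (-1.41), Asns (-1.40) and Bcl2 (-1.39). These were followed by Tuba1b (-1.34), Dusp4 (-1.30), Slc7a1 (-1.29), Ccr2 (-1.28), Csf1 (-1.23), Psat1 (-1.16), Tubb5 (-1.13) and Spred1 (-1.07). The remaining ones were Spp1 (-0.96), Ets2 (-0.90), Tubb6 (-0.79), Cx3cr1 (-0.76) and Clec4e (-0.68). Genes with a higher value were Il1b (1.92), Cebpa (1.74), Entpd1 (1.64), Atp6v0d2 (1.41), Vegfa (1.38), Slc37a2 (1.35), Apoc2 (1.35) and Cd300a (1.33). Also higher were Usp18 (1.30), Apoe (1.29), P2ry12 (1.16), Trem2 (1.07), Ccl2 (0.9996) and Junb (0.88).

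The change with medium differed between wild-type cells without and with LPS for 2649 genes, or 23.6% of those tested (edgeR interaction test). Among them were 149 of the 293 named in the text, many of which were chosen for their change with medium. For 6 of these, picked as examples, the log2 fold change with LPS minus that without was Csf1 (1.44), Ifitm3 (1.36), Isg15 (2.15), Sox4 (-2.53), Thbs1 (-3.79) and Usp18 (2.30). The causes of these differences were not tested.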

How the results depend on the processing

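With other size factors (RLE), with DESeq2, without a filter on low counts, in a fit of the groups compared alone and with a replicate block, the counts of called genes stayed within 1.5 times the 4 reported ones, at 4821 to 5179 for medium in wild-type cells, 5279 to 5628 in knockout cells, 485 to 734 for the interaction of genotype and medium and 2485 to 2869 for that of medium and LPS. Leaving out 1 library at a time gave 4376 to 4680, 4855 to 5261, 398 to 509 and 2315 to 2592. With libraries 1 and 3, and 2 and 4, summed to 2 per group, the counts dropped to 2969, 3539, 97 and 853. Against a 1.5-fold change instead of none (glmTreat) they dropped to 2201, 2754, 174 and 1138, as a stricter question must. The drop with summed pairs comes with fewer samples, and whether shared cultures had a part was not tested.

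Library numbers gave no clear pairing of the samples. Deviations of same-numbered wild-type libraries from their group means correlated with r = 0.02, 0.18, 0.07 and -0.04 for numbers 1 to 4. For differently numbered libraries r was -0.15 to 0.12. Whether odd-numbered or even-numbered libraries share a culture or batch was not tested. With the replicate block, 4917, 5279, 485 and 2545 genes were called.

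In wild-type cells 50.6% of calls were higher, and 49.3% in the fit of the groups compared alone. In knockout cells these shares were 55.1% and 48.6%. For the interaction of genotype and medium the share of higher calls was 30.4%, 20.2% in the fit of the 4 groups alone and 5.15% with summed pairs. For that of medium and LPS it was 45.5%, and 52.8% with RLE factors. The median log2 fold change in wild-type cells was 0.01, and 0.04 with RLE factors. The causes were not tested.

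Of 337 genes looked at singly, 302 were called. Under these settings 0 of them took the opposite direction with a call, and 75 lost or gained a call under at least 1 setting, 30 of them when 1 library was left out. The 1.5-fold test took 64 calls and summed pairs took 42. Of 88 counts of list members, 49 moved by over 1.5 times under some setting, most of them counts under 8 members. Replication genes called lower stayed at 34 to 40 of 40, and mitosis genes at 26 to 39 of 44.

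Precision depends on depth: 24.1% of genes under 5 CPM were called, against 60.5% between 100 and 500 CPM, and 3 counts amount to 0.182 to 0.504 CPM in these 8 libraries.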

Other observations

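Some genes outside every list above changed as much as the genes in them. They were chosen after their values were seen, and they are given as values. The Toll-like receptors went different ways in low medium. Tlr9, the endosomal receptor for unmethylated DNA, had 13.1, 20.7, 15.1 and 19.8 CPM in normal medium and 99.3, 134, 98.96 and 136 CPM in low medium. Every low-medium library held several times the level of any normal-medium library. Tlr8, an endosomal receptor for RNA, rose from 43.9 to 169.7 CPM (log2 fold change 1.95 ± 0.18, edgeR adjusted p = 3.68e-11). Tlr7 (log2 fold change 0.60), Tlr2 (0.76) and Unc93b1, the chaperone of the endosomal receptors (0.88), rose by less. Tlr3, the receptor for double-stranded RNA, fell (from 8.01 to 4.90 CPM, edgeR adjusted p = 0.029), although its groups overlapped and the call was lost when any 1 of 6 libraries was left out (edgeR adjusted p = 0.055 to 0.11). The LPS receptor Tlr4 (from 34.5 to 39.1 CPM, edgeR adjusted p = 0.45) and the bacterial ribosomal RNA receptor Tlr13 (from 110.4 to 92.5 CPM, edgeR adjusted p = 0.19) were not called.

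Membrane proteins of the MS4A family were among the large rises. Ms4a7 had 212, 243, 282 and 257 CPM in normal medium and 1161, 1389.7, 1143 and 1504 CPM in low medium. Ms4a6c rose from 144 to 569 CPM and Ms4a6b from 35.98 to 157 CPM. The groups did not overlap for any of these 3 genes. Members of this family resemble each other in sequence, so some of their reads may have been assigned to the wrong member. Selenop, a secreted selenium carrier (from 184 to 1082 CPM), the proton-sensing receptor Gpr65 (from 61.05 to 379 CPM), the interleukin 6 receptor chain Il6ra (from 107 to 462 CPM), glutamine synthetase Glul (from 106 to 455 CPM) and Notch1 (from 24.2 to 106 CPM) rose as well. Falls included the cytokine Mif (from 459.6 to 79.3 CPM), the nuclear transport GTPase Ran (from 476 to 132 CPM), the annexin Anxa2 (from 632 to 205 CPM) and Atf4, the transcription factor of the amino acid response (from 356 to 122 CPM). No interaction of genotype and medium was called for Tlr9, Tlr8 or Ms4a7 (edgeR adjusted p = 0.998, 0.72 and 0.82).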
